A study of Homo sapiens with 36 samples.

Results

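Hippo pathway genes, 10 in all, were followed through actinomycin D treatment of a Wilms tumor cell line: the kinases LATS1 and LATS2, their adaptors MOB1A and MOB1B, the coactivators YAP1 and WWTR1 (the gene of TAZ), and the target genes CTGF (also called CCN2), CYR61 (also called CCN1), ANKRD1 and AMOTL2. They were taken by name after mapping Ensembl identifiers to GENCODE release 29, and all 10 were found among the 58219 genes of the RNA tables and the 43582 genes of the footprint tables. The genes were listed with earlier results of these libraries known, and MOB1A was selected on its footprint counts at 72 h, so MOB1A footprints at 72 h and 2 weeks are given as a description with no test.

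WiT49 is 1 established line from an anaplastic Wilms tumor, a kidney tumor of childhood. Its cells received 2 nM actinomycin D (actD), a DNA-binding inhibitor of transcription, or the vehicle DMSO. How far this dose lowered transcription was not tested. Exposure was for 6 h or 72 h, or in 2 weekly cycles of 7 days, 3 with the additive and 4 without it. There were 12 groups with 3 libraries in each, 18 libraries from total RNA and 18 from ribosome footprints (the stretches of mRNA covered by ribosomes). No label says that the 3 came from separate cultures, so p-values measure the spread between these libraries, which may be technical. For the 2-week RNA libraries the title and the library name give opposite treatments, so the library name is followed here (named actd, named dmso), and every sign at that time turns if the titles hold. The footprint labels at 2 weeks show no such conflict.

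RNA libraries held 40221994 to 69240041 counts, and footprint libraries 152556 to 1281039, of which 23134 to 283435 fell on protein-coding genes. The line was checked against its labels. Among markers of blastema, the undifferentiated part of a Wilms tumor, WT1 and NCAM1 reached 1 CPM (counts per library brought to one size by edgeR's TMM factors) in every RNA table, while SIX2, CITED1, EYA1, SALL1, PAX2 and MEOX1 had medians under 1 CPM. Epithelial and mesenchymal markers reached 1 CPM for 4 of 5 genes each, and red cell and endothelial markers had medians under 1 CPM. The share of counts on mitochondrial ribosomal RNA at 72 h was 24.6% to 32.3% in the actD RNA libraries and 15.5% to 22.5% in the DMSO libraries, and in footprints 12.4% to 21.0% and 4.80% to 10.6%. At 2 weeks it was 25.8% to 31.2% in the RNA libraries named actd and 19.6% to 22.9% in those named dmso, and in footprints 5.10% to 6.24% in actD and 3.07% to 4.00% in DMSO. At 6 h the groups overlapped. The part of this share in the results below was not tested.

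The Hippo pathway is a kinase cascade that restrains organ growth. MST kinases activate LATS1 and LATS2 with the help of MOB1 proteins, and LATS kinases phosphorylate YAP and TAZ, which keeps them out of the nucleus. Unphosphorylated YAP and TAZ bind TEAD transcription factors and switch on genes such as CTGF and CYR61, and YAP is active in the progenitor cells of the developing kidney.

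The DNA letters that TEAD proteins recognise are shown here because YAP and TAZ reach their targets through them. The 6 letters GGAATG, or CATTCC on the other strand, were searched in the 250 bases before each RefSeq start (GRCh38.p14). The members had 13 windows, from 9 genes (CYR61 was not matched), and 4 of the 13 (30.8%) held a match, beside 11.9% of all 35116 windows. The CTGF window, chr6:131951373-131951622 on the minus strand, held 3 matches, a number reached by 29 windows (0.0826%). It is printed 5′ to 3′ with the matches in capitals, which begin 169, 104 and 95 bases before the start.
CTGF: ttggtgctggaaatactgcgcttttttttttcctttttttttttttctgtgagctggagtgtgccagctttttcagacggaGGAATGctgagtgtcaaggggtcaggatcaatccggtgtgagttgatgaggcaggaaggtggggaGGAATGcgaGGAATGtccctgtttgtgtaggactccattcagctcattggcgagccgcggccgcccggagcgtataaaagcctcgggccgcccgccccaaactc

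The other matches are printed with 10 bases on either side, again in capitals. Those of ANKRD1 begin 220 and 128 bases before the start (chr10:90921292-90921317 and chr10:90921200-90921225, minus strand), that of AMOTL2 69 bases before it (chr3:134374501-134374526, minus strand) and that of YAP1 162 bases before it (chr11:102110275-102110300, plus strand). GENCODE starts ANKRD1 and AMOTL2 further upstream, so 189 and 147 of the 250 window bases lie in their annotated first exons.
ANKRD1 first: caccaccaaaGGAATGgccctctcac
ANKRD1 second: cactgagtctGGAATGaaaattcacc
AMOTL2: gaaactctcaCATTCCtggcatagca
YAP1: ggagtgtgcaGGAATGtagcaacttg

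LATS1, LATS2, MOB1A, MOB1B and WWTR1 held no match in these windows. A match is a description of the letters and not of binding.

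RNA of all 10 genes was detected in every 6 h and 72 h library. Per kilobase of exon, CTGF had the highest mean in the 6 h DMSO libraries, 65.8 ± 23.2 CPM per kb (SD, n = 3), followed by MOB1A, CYR61 and YAP1 at 61.1, 58.9 and 48.2. The ranges of these 4 overlapped their neighbours in that order, so the order among them is not resolved. AMOTL2 and LATS2 followed at 24.5 and 20.8 CPM per kb, then ANKRD1 at 12.7, LATS1 at 8.38, MOB1B at 3.83 and WWTR1 at 2.672.

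Of the 4 targets, CTGF, CYR61 and ANKRD1 held a lower rank in the RNA of the 2-week libraries than at both earlier times. AMOTL2 ranked below its 6 h place but not below its 72 h place. In vehicle, CTGF stood at the 97.6th percentile of protein-coding genes at 6 h and the 95.5th at 72 h, and at the 48.2nd in the 2-week libraries named dmso. CYR61 stood at 97.3, 95.2 and 55.1, and ANKRD1 at 82.7, 72 and 12.6. AMOTL2 stood at 92, 82.3 and 86.5. The kinase adaptor MOB1A, at 97.4, 98.3 and 97.6, and YAP1, at 96.5, 96.4 and 96.6, stood within 1 point of each other at the 3 times. The tables were counted separately and the times were not compared by a test.

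**Figure D1:**
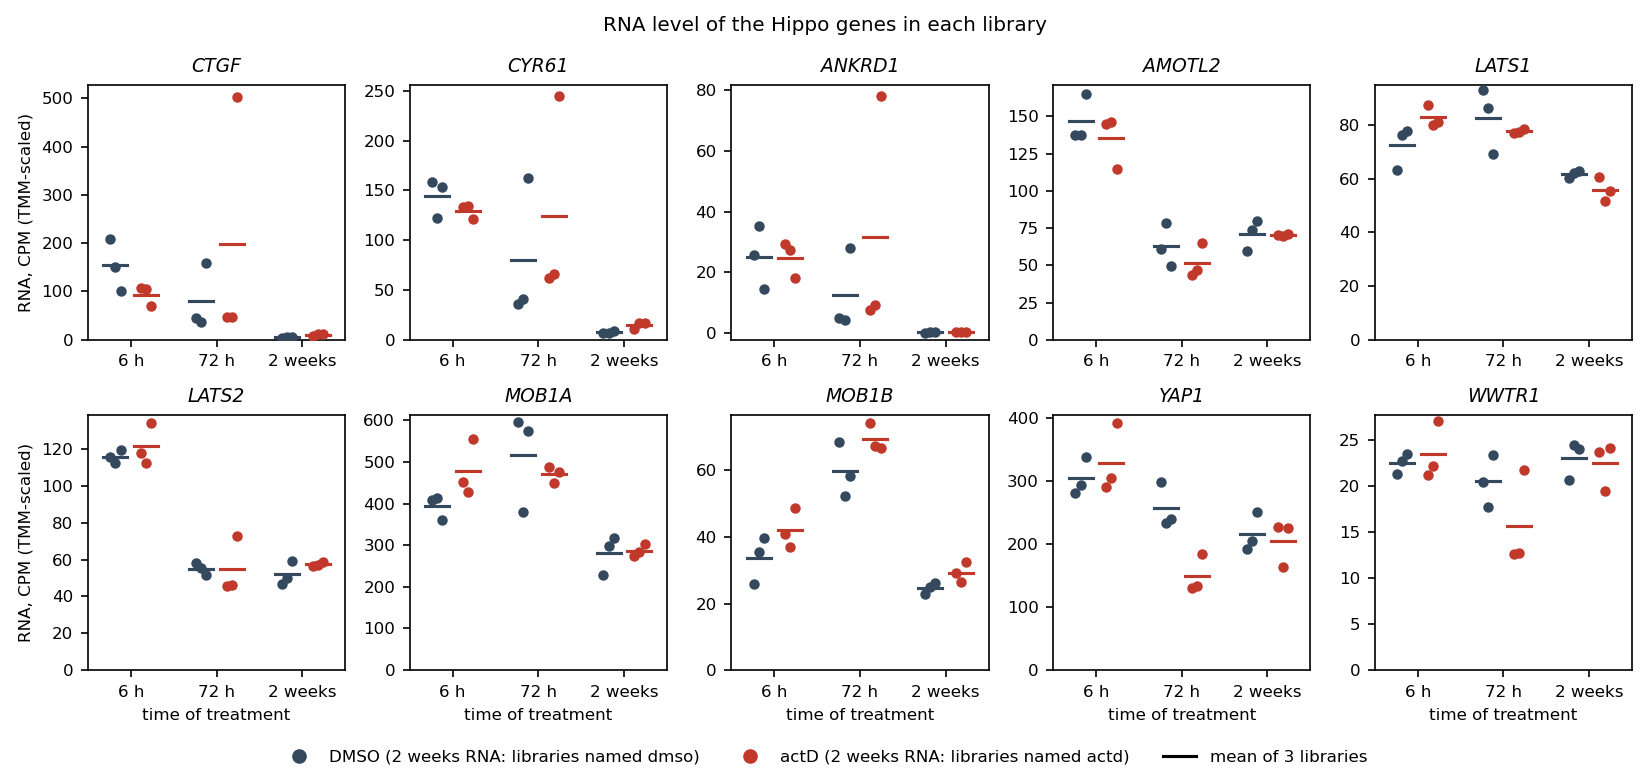
RNA level (y axis, CPM, linear scale from 0) of the 10 genes at 6 h, 72 h and 2 weeks (x axis). Each point is 1 library and each line the mean of 3, with DMSO (or named dmso) dark and actD (or named actd) red. CTGF and CYR61 are near 0 at 2 weeks on the scale of the earlier times, and at 72 h 1 point of each group stands far above the others.

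No member changed at an adjusted p under 0.05 by edgeR's quasi-likelihood test fitted within each time and assay, so the values below describe differences that did not pass it, unless another fit is named. In RNA, 0 of 10 members were called at 6 h (0% of all genes tested), 0 of 10 at 72 h (0.00472% of all genes), 0 of 10 at 2 weeks (0%) and 0 of 10 for the difference between the 72 h and 6 h effects (0.0165%). In footprints, 0 of 5 were called at 6 h (0%), 0 of 6 at 72 h (3.79%) and 0 of 1 at 2 weeks (0%), and in translational efficiency at 72 h 0 of 6 (0.433%). At an unadjusted p under 0.05, edgeR listed CTGF in RNA at 6 h (8.21% of all genes), YAP1 at 72 h (13.1%), CTGF and CYR61 at 2 weeks (8.93%), and YAP1 for the difference between 72 h and 6 h (8.02%). In footprints it listed CTGF at 6 h (3.14%), LATS1 at 72 h (27.3%) and no member at 2 weeks (8.57%), and in translational efficiency LATS1 (14.9%). DESeq2 called CTGF and CYR61 in RNA at 2 weeks, where it called 0.894% of all genes. It called no other member, beside 0.869% and 2.87% of all genes in RNA at 6 h and 72 h, 0.825%, 4.41% and 0% in footprints at the 3 times, 4.63% in translational efficiency and 0.664% for the difference between 72 h and 6 h. DESeq2 gave no p-value for CTGF and ANKRD1 in RNA at 72 h, and no adjusted p for ANKRD1 in RNA at 2 weeks. For these values the absence of a call is not a test result.

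The actD and DMSO values did not overlap for 2 of 10 members in RNA at 6 h, both higher (15.8% of all genes did not overlap, in either direction), for 1 of 10 at 72 h, lower (20.9%), and for 3 of 10 at 2 weeks, all higher (15.7%). Among members tested in footprints, which excludes MOB1A at 72 h, 1 of 5 did not overlap at 6 h (9.41%) and 1 of 6 at 72 h (35.7%), both lower. The median log2 fold change of the members was 0.06 at 6 h, -0.05 at 72 h and 0.09 at 2 weeks in RNA, beside 0.02, 0.02 and -0.02 for all genes tested.

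**Figure D2:**
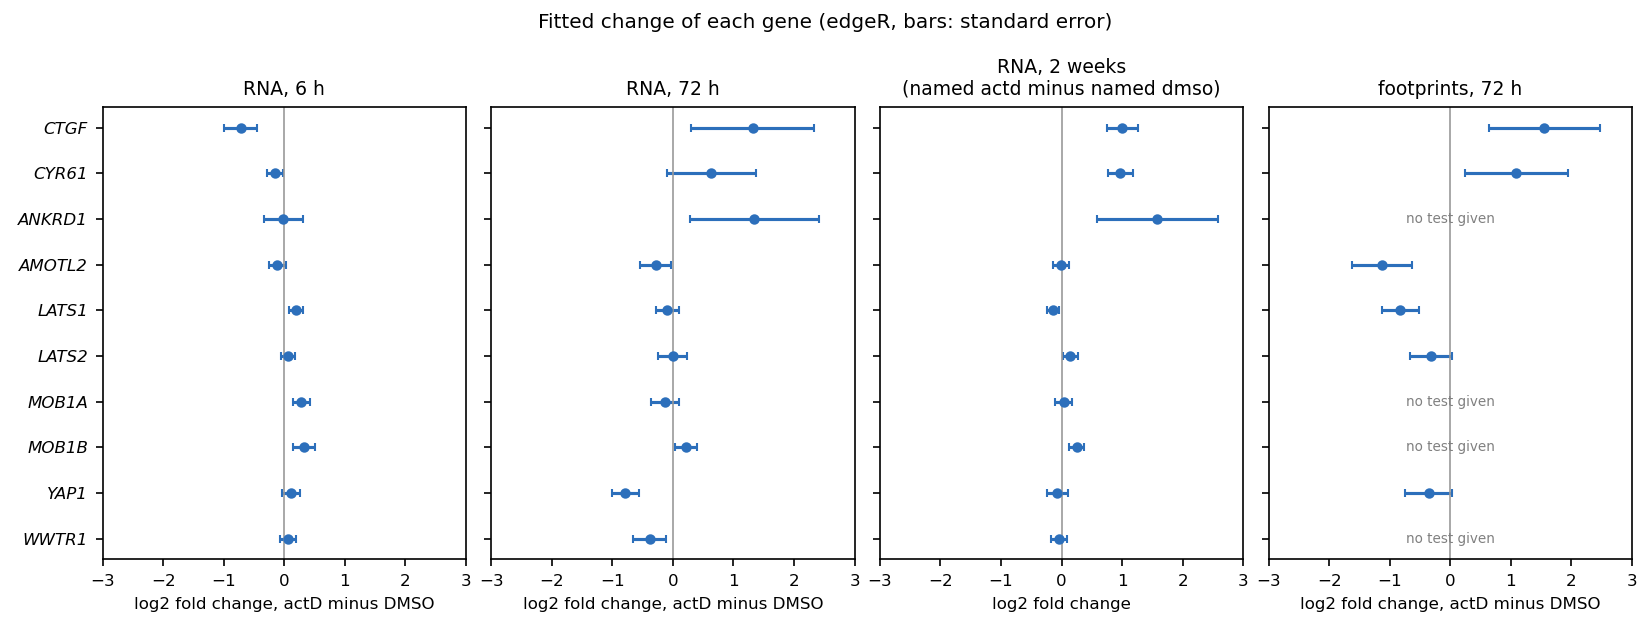
Fitted log2 fold change (x axis, actD minus DMSO, or named actd minus named dmso) of each gene (y axis), with bars of 1 standard error, in RNA at 3 times and in footprints at 72 h. The bars of CTGF and ANKRD1 at 72 h are the widest of the RNA panels at that time, with standard errors of 1.01 and 1.06.

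CTGF (GRCh38 chromosome 6, 131948176 to 131951373, minus strand) encodes a secreted matrix protein and is a widely used readout of YAP activity. After 6 h, its RNA measured 106.9, 104.2 and 69.0 CPM in the actD libraries and 210, 151 and 101 CPM in DMSO. The lowest DMSO library lay just below the 2 upper actD libraries, so the groups overlapped. The fitted difference was -0.72 (log2, SE 0.27, edgeR adjusted p = 0.576), -0.43 without replicate 1 of DMSO and -0.95 without replicate 3 of DMSO. In bulk RNA, fewer expressing cells and less RNA per cell cannot be told apart.

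Footprints on CTGF at 6 h measured 8.27, 10.6 and 27.0 CPM in actD and 88.7, 61.0 and 36.7 CPM in DMSO. All 3 actD libraries were below all 3 DMSO libraries, on 4, 4 and 12 counts against 87, 47 and 14. The fitted log2 difference was -2.02 (SE 0.59, edgeR unadjusted p = 0.0117, adjusted p = 0.889), and the adjusted p ranged from 0.0617 (DESeq2) to 1 over the alternatives. A count of 0 allows 3 counts, a floor of 3.06 to 7.94 CPM in the 6 h footprint libraries, so the lower 2 values lie close to it.

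At 72 h the CTGF value rested on single libraries. RNA measured 46.3, 47.2 and 504 CPM in actD and 44.2, 37.2 and 158 CPM in DMSO. Replicate 3 was the high library of both groups, 10.8 and 3.89 times the mean of the other two. On the log2 scale the difference was 1.32 (SE 1.01, edgeR adjusted p = 0.607), -0.78 without replicate 3 of actD, and 0.19 (SE 0.14) without replicate 3 of both groups, the last an alternative chosen after seeing the data.

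Footprints on CTGF at 72 h showed the same high libraries. They measured 121, 92.5 and 719 CPM in actD and 49.8, 83.8 and 211 CPM in DMSO, with replicate 3 at 6.73 and 3.17 times the mean of the others. Its log2 fold change was 1.55 (SE 0.92, edgeR adjusted p = 0.295) and 0.20 at the lowest when single libraries were left out. Replicate 3 of DMSO held 17 counts here, in the smallest footprint library of the series.

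At 2 weeks, CTGF RNA measured 6.96, 11.7 and 12.7 CPM in the libraries named actd and 4.01, 5.14 and 6.43 CPM in those named dmso. Every library named actd was above every library named dmso, with the closest pair 6.96 and 6.43 CPM. The log2 fold change was 1.01 (SE 0.26, edgeR adjusted p = 0.425), and DESeq2 gave 1.02 with an adjusted p of 0.0305. In footprints at 2 weeks CTGF had 3, 10 and 6 counts in actD and 0, 4 and 0 in DMSO and did not pass the count filter.

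CYR61 (chromosome 1, 85580761 to 85583962, plus strand), a secreted relative of CTGF that binds integrins, had close levels in both groups at 6 h. RNA measured 133, 134 and 121 CPM in actD and 158, 122 and 154 CPM in DMSO (log2 fold change -0.16, SE 0.13, edgeR adjusted p = 0.814). The ranges overlapped.

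At 72 h CYR61 measured 61.7, 65.7 and 245 CPM in actD RNA and 35.9, 41.2 and 163 CPM in DMSO RNA. Replicate 3 was again high in both groups, 3.84 and 4.22 times the mean of the others. The fitted log2 difference was 0.63 (SE 0.74, edgeR adjusted p = 0.738), -0.33 without replicate 3 of actD and 0.71 (SE 0.145, adjusted p = 0.0822) without replicate 3 of both groups.

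CYR61 footprints at 72 h measured 200, 141 and 767 CPM in actD and 74.7, 107.3 and 373 CPM in DMSO. Here too replicate 3 was the highest of each group, 4.49 and 4.1 times the others, and the groups overlapped. On the log2 scale the difference was 1.09 (SE 0.85, edgeR adjusted p = 0.427), 0.13 without replicate 3 of actD and 2.06 without replicate 3 of DMSO.

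At 2 weeks CYR61 RNA measured 10.9, 16.3 and 17.3 CPM in the libraries named actd and 6.95, 6.94 and 8.88 CPM in those named dmso. The groups did not overlap. Its log2 fold change was 0.97 (SE 0.20, edgeR adjusted p = 0.343), and DESeq2 gave 0.98 with an adjusted p of 0.00422.

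ANKRD1 (chromosome 10, 90912096 to 90921276, minus strand), a nuclear and sarcomeric ankyrin-repeat protein, followed the same library pattern at 72 h. RNA at 6 h measured 29.1, 27.4 and 17.9 CPM in actD and 25.5, 35.2 and 14.3 CPM in DMSO (log2 fold change -0.01, SE 0.32). At 72 h it measured 7.59, 9.17 and 78.1 CPM in actD and 4.97, 4.29 and 28.0 CPM in DMSO, with replicate 3 at 9.31 and 6.05 times the others. The 72 h log2 fold change was 1.34 (SE 1.06, edgeR adjusted p = 0.618), -0.57 without replicate 3 of actD and 0.85 (SE 0.18, adjusted p = 0.0904) without replicate 3 of both groups.

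At 2 weeks ANKRD1 was nearly silent, with 19, 20 and 7 counts in the libraries named actd and 0, 3 and 12 in those named dmso. The groups overlapped. In footprints ANKRD1 was at 0 in 16 of 18 libraries, and actD replicate 3 at 72 h held 11 counts.

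Replicate 3 was at least 2-fold above both other replicates in both 72 h groups for 204 of 21195 genes tested in RNA (0.962%), and CTGF, CYR61 and ANKRD1 are 3 of them. The other 7 members were not. AMOTL2, LATS1, LATS2, MOB1A, MOB1B, YAP1 and WWTR1 in replicate 3 lay between 0.713 and 1.71 times the mean of the other replicates. The pattern was noticed in these data and its cause was not tested.

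AMOTL2 (chromosome 3, 134355874 to 134375479, minus strand) encodes an angiomotin-like scaffold that holds YAP outside the nucleus and is itself a YAP target. Its RNA did not follow replicate 3. It measured 145, 146 and 114 CPM in actD and 138, 138 and 165 CPM in DMSO at 6 h, and 43.5, 46.7 and 65.2 against 61.1, 78.6 and 49.8 CPM at 72 h, with overlap at both times. The log2 fold changes were -0.12 (SE 0.14) and -0.29 (SE 0.25), and at 2 weeks -0.01 (SE 0.13).

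Footprints on AMOTL2 at 72 h measured 16.4, 19.0 and 46.4 CPM in actD and 74.7, 40.2 and 74.6 CPM in DMSO. These rest on 11, 7 and 39 counts against 33, 12 and 6, and the floor of DMSO replicate 3 at 72 h was 37.3 CPM. The high actD library, replicate 3, lay above the low DMSO library, and the other 2 actD libraries were under every DMSO library. The log2 fold change was -1.12 (SE 0.49, edgeR adjusted p = 0.189). Without replicate 3 of actD it was -1.70, and AMOTL2 was called (edgeR adjusted p = 0.0462). The share of all genes called in that fit is not given here. In translational efficiency, the footprint change beyond the RNA change, the AMOTL2 value was -0.97 (SE 0.52, edgeR adjusted p = 0.404).

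LATS1 (chromosome 6, 149658153 to 149718256, minus strand) is one of the kinases that phosphorylate YAP, and its groups separated at 6 h in RNA and at 72 h in ribosome footprints. RNA at 6 h measured 87.6, 80.1 and 81.3 CPM in actD and 63.4, 76.1 and 77.7 CPM in DMSO. The groups did not overlap, and the log2 fold change was 0.20 (SE 0.12, edgeR adjusted p = 0.723). At 72 h RNA overlapped (-0.09, SE 0.19).

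Footprints on LATS1 at 72 h measured 26.9, 27.2 and 35.7 CPM in actD and 58.8, 50.3 and 49.8 CPM in DMSO. All 3 actD libraries were below all 3 DMSO libraries, on 18, 10 and 30 counts against 26, 15 and 4. The floor of DMSO replicate 3 was 37.3 CPM, above all 3 actD values, so its 4 counts place it only loosely. The fitted log2 difference was -0.83 (SE 0.30, edgeR adjusted p = 0.135), and the translational efficiency -0.90 (SE 0.30, adjusted p = 0.218). The footprint value kept its sign in all 12 alternatives, from -0.93 to -0.65.

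LATS2 (chromosome 13, 20973032 to 21061547, minus strand) is the other LATS kinase and also a known YAP target. Its log2 fold changes were 0.07 (SE 0.11) at 6 h, -0.01 (SE 0.23) at 72 h and 0.14 (SE 0.12) at 2 weeks, none of them past the test. At 72 h in RNA LATS2 measured 45.5, 46.0 and 73.0 CPM in actD and 58.2, 55.5 and 51.6 CPM in DMSO. The groups overlapped through actD replicate 3. Footprints at 72 h gave -0.32 (SE 0.34, edgeR adjusted p = 0.658). At 6 h they measured 10.3, 10.6 and 6.74 CPM in actD and 18.35, 19.5 and 15.7 CPM in DMSO, every actD library lower. These rest on 5, 4 and 3 counts against 18, 15 and 6, and LATS2 did not pass the count filter at 6 h. Of the genes that did, 9.41% did not overlap in either direction.

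The MOB1 adaptors, MOB1A (chromosome 2, 74152528 to 74178898, minus strand) and MOB1B (chromosome 4, 70902326 to 71022449, plus strand), bind and activate LATS kinases. MOB1A RNA at 6 h measured 451, 428 and 554 CPM in actD and 407, 414 and 360 CPM in DMSO. The groups did not overlap, and the log2 fold change was 0.28 (SE 0.14, edgeR adjusted p = 0.66). At 72 h it was -0.13 (SE 0.23) and at 2 weeks 0.03 (SE 0.15).

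MOB1A footprints at 72 h were uneven between the groups where its RNA was not. With actD they numbered 102, 40 and 189, and all DMSO libraries are listed at 0, while the 6 RNA libraries of that time held 17130 to 39628 counts in both groups. At 6 h, MOB1A held 0, 16 and 26 footprint counts in actD and 12, 3 and 8 in DMSO, and at 2 weeks 13, 19 and 14 against 7, 15 and 15.

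Of 591 genes with at least 30 counts in each actD footprint library at 72 h, MOB1A and SNX22 were the 2 listed at 0 in all 3 DMSO libraries (SNX22 chosen after its values were seen). A 0 in these tables can occur for abundant genes: the housekeeping genes TPI1 and LDHA are listed at 0 in DMSO replicate 3 and in actD replicate 2 at 72 h. In DMSO replicates 1 and 2 of that time, where MOB1A is also at 0, none of the 20 housekeeping genes was at 0, and the lowest of them held 9 and 13 counts. Within single groups at that time, a value of 0 beside values of at least 30 occurred for 131 of 2119 genes in actD and 60 of 906 in DMSO. MOB1A was selected on these counts, and the housekeeping list was chosen after the data were seen. The counts in this paragraph are therefore a description only. No fold is given for MOB1A, and how the zeros arose was not tested. MOB1A and MOB1B are close paralogs, and how reads matching both were counted is not given in the sources used here.

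MOB1B RNA was higher in all 3 named actd libraries at 2 weeks (29.04, 26.3 and 32.4 CPM against 22.8, 25.0 and 26.2), a difference of 0.25 (SE 0.12, edgeR adjusted p = 0.59). At 6 h it was 0.32 (SE 0.18) and at 72 h 0.22 (SE 0.18). In footprints, MOB1B held 0 counts in 15 of 18 libraries.

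YAP1 (chromosome 11, 102110461 to 102233423, plus strand), the coactivator, was the member whose RNA separated by group at 72 h. It measured 129, 133 and 184 CPM in actD and 299, 234 and 240 CPM in DMSO. All actD libraries were below all DMSO libraries. On the log2 scale the difference was -0.79 (SE 0.22, edgeR unadjusted p = 0.00829, adjusted p = 0.271), and the mean ratio 0.578. In 1 edgeR fit over all 18 RNA libraries, where 4.89% of genes were called, YAP1 fell by 0.76 on the log2 scale (adjusted p = 0.0315). It was -0.74 with protein-coding genes only and -1.02 (SE 0.16, adjusted p = 0.0608) without replicate 3 of both groups.

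At 72 h the 20 housekeeping genes listed for comparison had a median log2 fold change of -0.46 in RNA, beside 0.02 for all genes tested. Of the 20, 7 were lower without overlap (10.3% of all genes), and none was called. The share of this shift in the YAP1 value was not tested. At 6 h YAP1 RNA measured 291, 304 and 391 CPM in actD and 280, 293 and 337 CPM in DMSO (0.11, SE 0.15), and the difference between the 72 h and 6 h effects was -0.93 (SE 0.28, edgeR unadjusted p = 0.00674, adjusted p = 0.478). At 2 weeks it was -0.07 (SE 0.17).

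YAP1 footprints overlapped between groups. At 72 h they measured 52.3, 70.7 and 92.8 CPM in actD and 120, 67.1 and 87.1 CPM in DMSO, with overlap (-0.36, SE 0.39, edgeR adjusted p = 0.58). The value of DMSO replicate 3 rests on 7 counts. At 2 weeks the log2 fold change was -0.02 (SE 0.29).

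WWTR1 (chromosome 3, 149517235 to 149736714, minus strand), which encodes TAZ, had the lowest RNA level per kilobase of the set at 6 h and 72 h in DMSO. At 72 h it measured 12.6, 12.7 and 21.7 CPM in actD and 20.5, 17.7 and 23.3 CPM in DMSO. The groups overlapped through actD replicate 3, and the log2 fold change was -0.39 (SE 0.27, edgeR adjusted p = 0.579). It was 0.06 (SE 0.13) at 6 h and -0.04 (SE 0.13) at 2 weeks. Footprints on WWTR1 were 0 in 17 of 18 libraries. Whether strand was used in counting is not given, and some exon bases of 4 members lie in an opposite-strand gene of GENCODE: 9.45% for WWTR1 (WWTR1-AS1), 9.97% for YAP1 (AP000942.2), 8.34% for CTGF (AL133346.1) and 4.72% for LATS1 (AL358852.1). Reads from those stretches cannot be told apart without strand.

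**Figure D3:**
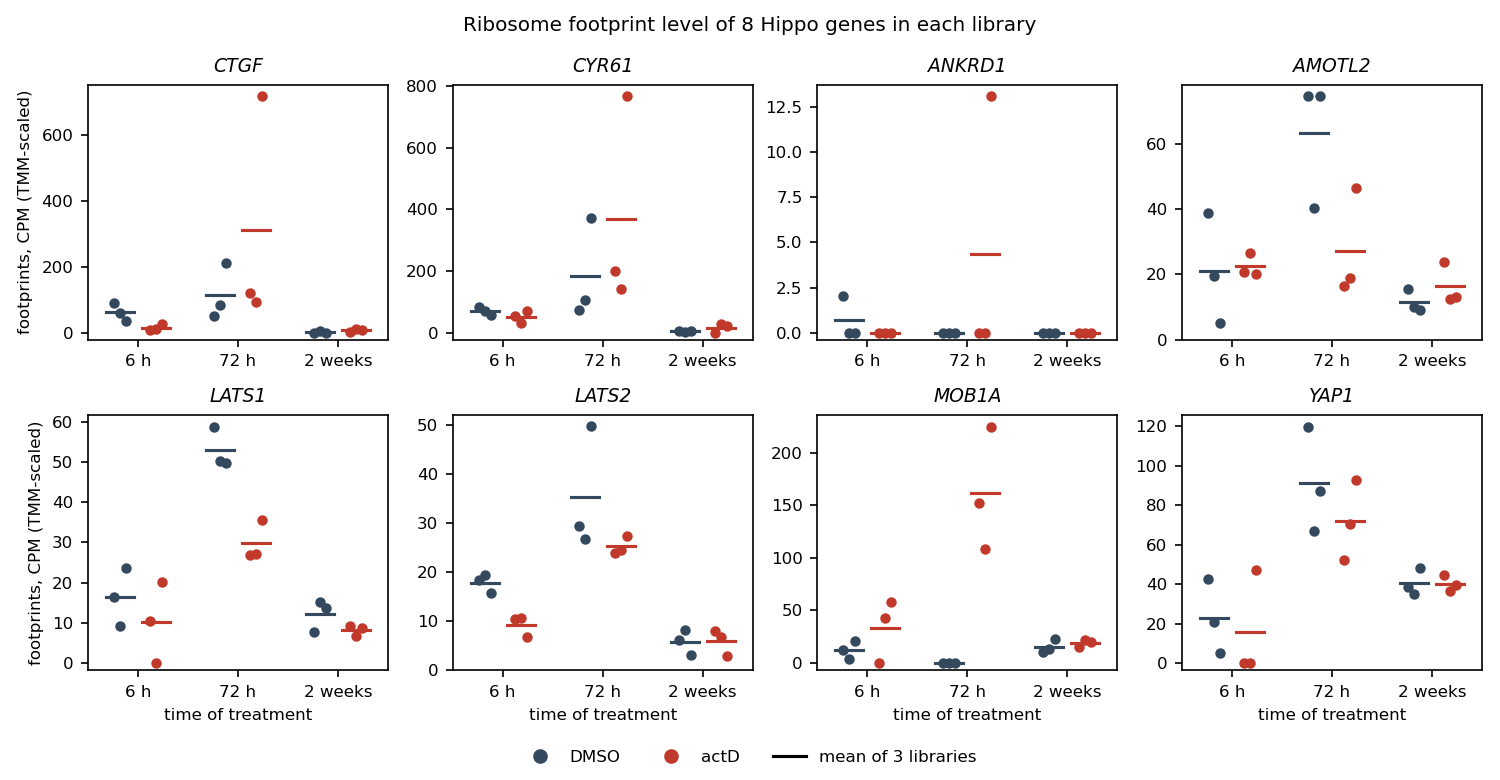
Ribosome footprint level (y axis, CPM, linear scale) of 8 genes at 6 h, 72 h and 2 weeks (x axis), with DMSO dark and actD red, 1 point per library and a line at the mean of 3. LATS1 at 72 h, and CTGF and LATS2 at 6 h, are lower in every actD library. MOB1A is at 0 in all 3 DMSO libraries at 72 h, and CTGF and CYR61 stand high in 1 actD library at 72 h.

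A wider list of 62 genes of the pathway, of which 60 were tested in RNA, was read for its counts. At 6 h, 43 of 60 had a negative log2 fold change (10648 of 22669 among all genes), with a median of -0.12, and 0 were called. Of them 19 were lower without overlap and 5 higher, beside 8.17% lower and 7.66% higher among all genes. Of 17 genes of a YAP and TAZ target list, 14 were negative, with a median of -0.28 and 7 lower without overlap, against 1 higher. At 72 h, 10 of these target genes were negative and 7 positive, beside 10296 negative of 21195 among all genes. Without overlap 1 was lower and 1 higher (10.3% and 10.5% of all genes). At 2 weeks 9 were negative and 8 positive, beside 11254 negative of 21137. Without overlap 4 were lower and 4 higher (7.83% and 7.86% of all genes). The target AXL, a receptor kinase, measured 110, 113 and 99.7 CPM in actD and 172, 132 and 126 CPM in DMSO at 6 h, every actD library lower (a log2 difference of -0.42, SE 0.15, edgeR adjusted p = 0.556). At 72 h AXL overlapped between groups (0.55, SE 0.35, adjusted p = 0.534), and at 2 weeks it measured 83.4, 90.7 and 92.0 CPM in the libraries named actd and 71.2, 73.0 and 63.6 CPM in those named dmso, every one named actd higher (0.36, SE 0.11, adjusted p = 0.462). At 6 h FJX1, a secreted kinase-like protein, had -0.26 (SE 0.11, edgeR adjusted p = 0.598) and PTPN14, a phosphatase that binds YAP, -0.32 (SE 0.12, edgeR adjusted p = 0.577). DESeq2, which called 0.869% of all genes, called 3 list genes at 6 h, TNIK (-0.87) and WWC1 (-0.50) lower and VGLL3 (0.67) higher, named after their values were seen.

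At 72 h the list had a median of -0.13, with 9 lower and 6 higher without overlap (10.3% and 10.5% of all genes), and 0 called. VGLL4, which competes with YAP for TEAD, measured 24.3, 23.6 and 23.3 CPM in actD and 32.5, 31.5 and 40.4 CPM in DMSO, every actD library lower (-0.55, SE 0.19, edgeR adjusted p = 0.312). FJX1 measured 10.5, 9.66 and 10.6 CPM against 7.00, 7.94 and 5.39, every actD library higher (0.60, SE 0.23, adjusted p = 0.344). Both passed in the edgeR fit over 18 libraries, which called 4.89% of all genes, with adjusted p of 0.0468 and 0.036, as did AJUBA (0.69), DCHS1 (0.59) and LIMD1 (-0.44), named after their values were seen. Of the MST kinases, STK3 was lower (-0.57, SE 0.25, adjusted p = 0.382) and STK4 higher (0.49, SE 0.36, adjusted p = 0.596), and neither passed. STK4 measured 63.2, 63.1 and 65.9 CPM in actD and 21.4, 57.3 and 58.5 CPM in DMSO, every actD library higher. At 2 weeks STK4 measured 45.3, 44.4 and 43.5 CPM in the libraries named actd and 15.6, 36.5 and 13.5 CPM in those named dmso. Every library named actd was higher (7.86% of all genes). The log2 fold change was 1.02 (SE 0.34, edgeR adjusted p = 0.494, DESeq2 adjusted p = 0.0688).

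None of the TEAD genes, the DNA-binding partners of YAP, passed the test. TEAD2 and TEAD4 had log2 fold changes of -0.15 (SE 0.20) and -0.16 (SE 0.24) at 72 h, and TEAD3 0.44 (SE 0.31). TEAD1 RNA was uneven between libraries of one group at 72 h, with 40.6, 204 and 466 CPM in actD and 65.2, 265 and 395 CPM in DMSO. At 6 h TEAD1 was even, 342, 324 and 353 CPM against 405, 405 and 397 CPM, every actD library lower (-0.24, SE 0.11, edgeR adjusted p = 0.616). The scaffolds AMOT and AMOTL1 and the upstream genes NF2 and SAV1 had 72 h values of -0.88 (SE 0.39), -0.33 (SE 0.24), -0.25 (SE 0.20) and 0.45 (SE 0.26), and the kinase NUAK2 -0.34 (SE 0.28). AMOT RNA then measured 15.15, 6.44 and 20.7 CPM in actD and 25.55, 27.7 and 24.45 CPM in DMSO, every actD library lower (edgeR adjusted p = 0.396). AMOTL1, NF2, SAV1 and NUAK2 overlapped. AMOT footprints at 72 h were also lower, on 6, 3 and 9 counts against 11, 16 and 1, and did not pass the count filter. At 2 weeks the list had a median of -0.02, with 7 lower and 5 higher without overlap (7.83% and 7.86% of all genes), and 0 called by edgeR. DESeq2 called TGFB2 there (0.98, adjusted p = 0.0405), named after its value was seen.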

How the data were processed

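Values per gene were deposited by the authors in 6 tables, 1 per assay and time, and are taken as estimated counts (expected counts). HISAT2 and StringTie on hg38 are named per the submitters' processing notes. The annotation, strand use and handling of multi-mapping reads are not given in the sources used here. The values were already whole, so rounding changed nothing. All 36 columns were used. Identifiers matched GENCODE release 29 for 99.4% in both assays.

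Each table was fitted alone with edgeR 4.0.16 (R 4.3.3): TMM scaling, filterByExpr, quasi-likelihood test, two-sided, Benjamini-Hochberg over all genes tested, called at an adjusted p under 0.05. Translational efficiency and the 72 h minus 6 h effect are interaction terms over 12 libraries. CPM are counts scaled to a common library size with TMM. Alternatives were DESeq2 1.42.0, library totals, protein-coding genes only, no filter, a replicate block, 1 fit over 18 libraries, each library left out, and the titles as treatment at 2 weeks. Scripts were tested on simulated data.

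The members and lists were chosen with earlier results of these data known. Named genes are the members, 15 further pathway genes taken by role, and any list gene called. The housekeeping list was chosen after the data were seen. With 3 libraries against 3, an exact permutation test cannot go below 0.1. Floors cover counting error only. Replicate numbers were not taken as pairs, since in no table did every same-numbered pair correlate above 0.1.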

Additional observations from a re-analysis of the deposited data

How the results depend on the processing

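The count of called members differed under 3 alternatives and was the same under the other 105: 1 in RNA at 72 h with 1 fit over 18 libraries (YAP1), 2 in RNA at 2 weeks with DESeq2 (CTGF and CYR61), and 1 in footprints at 72 h without actD replicate 3 (AMOTL2). The share of all genes called in the fit without actD replicate 3 is not given here. With the replicate block 0 members were called in every comparison. Same-numbered libraries did not all correlate above 0.1 in any table (0.0839, 0.216 and 0.145 in RNA at 72 h), so the numbers were not taken as pairs. In RNA at 72 h the 3 same-numbered pairs were positive and the 6 others negative, a hint from the data and not the design, and the block gave 0.69 for CTGF in place of 1.32. It turned ANKRD1 RNA at 6 h to 0.0496 and AMOTL2 footprints at 6 h to 0.33.

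Taking treatment from the titles at 2 weeks turns every RNA sign by construction: CTGF -1.01, CYR61 -0.97, ANKRD1 -1.58, AMOTL2 0.0139, LATS1 0.14, LATS2 -0.14, MOB1A -0.0331, MOB1B -0.25, YAP1 0.0718 and WWTR1 0.0384. Other scalings and fits turned values near 0. Library totals gave 0.0284 for ANKRD1 at 6 h, and -0.0054 for LATS2 and -0.12 for MOB1A at 2 weeks. LATS2 at 72 h was 0.0438 with protein-coding genes only and 0.0207 with 1 fit over 18 libraries, which gave 0.0080 for AMOTL2 at 2 weeks. AMOTL2 footprints at 6 h were 0.0617 with DESeq2 and 0.14 with protein-coding genes only. The cause of these turns was not tested.

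Leaving out single libraries turned the sign of 23 values, given as lowest and highest log2 differences. In RNA at 6 h they were -0.29 and 0.30 for ANKRD1, -0.0123 and 0.12 for LATS2, -0.0323 and 0.20 for YAP1, and -0.0549 and 0.13 for WWTR1. At 72 h they were -0.78 and 2.29 for CTGF, -0.33 and 1.68 for CYR61, -0.57 and 2.77 for ANKRD1, and -0.27 and 0.11 for LATS2. At 2 weeks they were -0.13 and 0.0837 for AMOTL2, -0.10 and 0.13 for MOB1A, -0.15 and 0.0731 for YAP1, and -0.11 and 0.0585 for WWTR1. In footprints they were -0.36 and 0.56 for AMOTL2 and -6.85 and 0.0262 for YAP1 at 6 h, and -0.12 and 0.088 for YAP1 at 2 weeks. In translational efficiency they were -1.15 and 2.33 for CTGF and -0.72 and 1.41 for CYR61. For the 72 h minus 6 h effect they were -0.0273 and 2.99 for CTGF, -0.15 and 1.83 for CYR61, -0.53 and 2.77 for ANKRD1, -0.36 and 0.0203 for AMOTL2, -0.32 and 0.0367 for LATS2, and -0.26 and 0.0174 for MOB1B.

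Without replicate 3 of both groups, chosen after seeing the data, 0 members were called in RNA at 72 h. Footprint depth limits the members: 5, 6 and 1 of 10 were tested at 6 h, 72 h and 2 weeks (MOB1A also passed the filter at the later times and is described without a test), and MOB1B, WWTR1 and ANKRD1 at no time.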
